A study of Schmidtea mediterranea with 18 samples.

Results

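In the planarian *Schmidtea mediterranea*, 147 of the 41745 assembled transcripts met a rule for an early and sustained rise in *hippo (RNAi)* animals. Their mean level was already higher in these animals after 1 week of inhibition. They were higher in every *hippo (RNAi)* library after 3 and 4 weeks, whereas at 1 week the libraries of the treatments overlapped in 27 of them. These 147 transcripts were chosen by their measured levels. For each week, E was the log2 of the mean TPM of the 3 *hippo (RNAi)* libraries plus 1, minus the log2 of the mean TPM of the 3 control libraries plus 1, where TPM is a level corrected for transcript length and scaled to a fixed total in each library. A member averaged 5 TPM or more over the 18 libraries, and had an E of at least 0.58 at both 3 and 4 weeks with every *hippo (RNAi)* library above every control library, and an E of at least 0.3 at 1 week. Transcripts of the 20 assembly numbers that the study names in a gene list of its own were left out. Since the difference between treatments chose the members, its values are given for them as a description and carry no test.

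The animals under study were injected with *hippo* double-stranded RNA and collected after 1, 3 and 4 weeks. The controls received double-stranded RNA of green fluorescent protein (*gfp*), a sequence that planarians lack, and were collected at the same times. Every library came from a pool of 5 whole animals of the asexual clonal line BCN-10, which had been starved for at least 1 week and stayed unfed throughout, and each of the 6 groups had 3 libraries. As the animals share 1 clone and the labels do not say whether pools were injected separately, the spread between libraries is that between pools, and the age of the animals is not given in the sources used here. No transcript is identified as *hippo* itself in those sources, so the labels were not checked against the inhibited gene.

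The Hippo pathway is a kinase cascade known from flies and mammals, in which Hippo (MST in mammals) activates Warts (LATS), which phosphorylates the co-activator Yorkie (YAP) and keeps it out of the nucleus. When the cascade is lost, Yorkie enters the nucleus and genes of growth, survival and cell fate are transcribed. Planarians renew all of their tissues from neoblasts, adult stem cells that are their only dividing somatic cells, so a whole-animal library mixes stem cells, their progeny and every differentiated type. In such bulk libraries, more cells of a type and more RNA per cell cannot be told apart. The sources used here pair the assembly's identifiers with gene names for the 20 left-out numbers only, so the members are given by identifier and no role is assigned to them. For the same reason no marker list of a cell type could be measured.

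The 147 members were 0.964% of the 15250 transcripts that averaged 5 TPM or more. Of the 15230 such transcripts outside the left-out numbers, 3099 had separated treatments at 3 and 4 weeks, 379 of those also had an E of at least 0.58 at both times, and the part on 1 week kept 147 and set aside 232, here called late rises. The mirrored rule, with every sign turned, found 55 early sustained falls. Members came from 136 assembly numbers, where transcripts of 1 number are variants that the assembler grouped, so they are not all independent genes. Their 18-library means ran from 5.05 to 7521 TPM with a median of 19.1 TPM, 17 members lay above 100 TPM, and 37 lay below 10 TPM.

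At 1 week the median E of the members was 0.40 (range 0.30 to 1.5), against a median of 0.013 over the 15250 transcripts. It was 0.99 at 3 weeks (range 0.58 to 3.93) and 1.06 at 4 weeks (range 0.59 to 3.81), while the medians over the 15250 were 0.017 and 0.033. Most of the gain lay between 1 and 3 weeks, the longer interval. The median of E at 3 weeks minus E at 1 week was 0.599, and that of E at 4 weeks minus E at 3 weeks was 0.086. The limits of the rule, 0.3 at 1 week and 0.58 at 3 and 4 weeks, favour such a step. This course and the counts of shapes that follow are therefore a description. E was within 0.2 of its 3-week value at 4 weeks in 110 members, above it by more than 0.2 in 32 and below it by more than 0.2 in 5. By the change of E between 1 and 4 weeks, 107 members were growing (E at least 0.5 higher at 4 weeks), 12 were level (within 0.3) and 28 lay between. At 4 weeks 88 members had an E of at least 1 and 12 an E of at least 2, whereas only 1 member reached an E of 1 at 1 week. The order of members was much alike at 3 and 4 weeks (Spearman's rho 0.883 across 147 transcripts) and much less so between 1 and 4 weeks (rho 0.276). These coefficients run across transcripts of the same 18 libraries, and the rule bounds E at every week. At 1 week the quartiles of E were 0.35 and 0.50, and so narrow a range can itself lower a coefficient. Nothing is read from the gap between the coefficients.

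**Figure D1:**
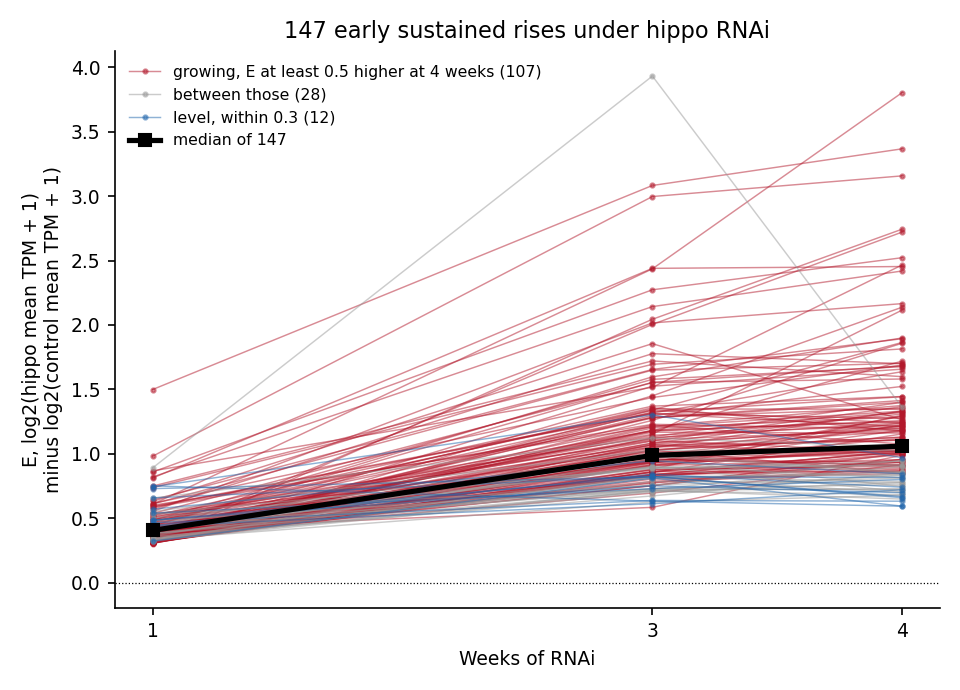
E of each of the 147 members (thin lines) against weeks of RNAi, coloured by the change of E between 1 and 4 weeks, with the median as a thick black line. The median is 0.40 at 1 week, 0.99 at 3 weeks and 1.06 at 4 weeks, and the grey line that peaks at 3 weeks is dd_Smed_v6_1062_0_4.

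A pair of transcripts took most of the RNA of the whole set. dd_Smed_v6_162_0_1, the most abundant member, had 6914, 7304 and 7724 TPM in the *hippo (RNAi)* libraries at 1 week, against 5855, 6186 and 5599 TPM in the controls. At 3 weeks it had 10867, 9918 and 9899 TPM in *hippo (RNAi)* animals, against 5260, 5558 and 5465 TPM in controls, and at 4 weeks 11480, 10950 and 10446 TPM, against 5216, 5592 and 5140 TPM. The treatments did not overlap at any week, and the ratio of means was 1.24 at 1 week, 1.88 at 3 weeks and 2.06 at 4 weeks.

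dd_Smed_v6_9_0_1 showed a steeper course at a similar level. Its *hippo (RNAi)* libraries held 3625, 4943 and 5773 TPM at 1 week, 9484, 9341 and 10490 TPM at 3 weeks and 11402, 10822 and 11153 TPM at 4 weeks. The control libraries held 2209, 2727 and 2976 TPM at 1 week, 1873, 2197 and 1993 TPM at 3 weeks and 1844, 2125 and 1838 TPM at 4 weeks. At 1 week the *hippo (RNAi)* pools were spread widely, with 252O, the lowest, nearer to the controls than the other two, while at 3 and 4 weeks all 3 pools lay several-fold above every control (ratios of means 4.84 and 5.75).

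dd_Smed_v6_284_0_1 had the same order of *hippo (RNAi)* libraries at 1 week and a larger difference at every week. In *hippo (RNAi)* animals it was at 439, 699 and 839 TPM at 1 week, 2162, 2051 and 2249 TPM at 3 weeks and 2465, 2442 and 2258 TPM at 4 weeks. In controls it was at 302, 322 and 376 TPM at 1 week, 262, 271 and 274 TPM at 3 weeks and 267, 266 and 267 TPM at 4 weeks. The 4-week means were 2388 ± 114 TPM in *hippo (RNAi)* animals, against 267 ± 0.618 TPM in controls (SD, n = 3 each), 8.95 times apart.

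The other abundant members differed less. dd_Smed_v6_175_0_1 averaged 877 ± 105, 1424 ± 18.6 and 1549 ± 69.8 TPM in *hippo (RNAi)* animals at 1, 3 and 4 weeks, against 681 ± 40.0, 672 ± 36.2 and 675 ± 29.0 TPM in controls (SD, n = 3 each). dd_Smed_v6_12_0_1 averaged 784 ± 44.8, 1072 ± 13.4 and 1104 ± 38.6 TPM, against 631 ± 55.9, 614 ± 13.4 and 614 ± 17.5 TPM. dd_Smed_v6_683_0_1 averaged 269 ± 34.9, 396 ± 1.80 and 411 ± 12 TPM, against 200 ± 6.54, 196 ± 9.85 and 197 ± 6.86 TPM. In these 3 transcripts the control means differed between weeks by less than the SD of the 1-week controls, and the *hippo (RNAi)* libraries were spread most widely at 1 week.

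Summed over the 147 members, the share of all TPM was 1.96% ± 0.221 in *hippo (RNAi)* animals and 1.39% ± 0.0582 in controls at 1 week, 3.24% ± 0.0939 and 1.24% ± 0.0448 at 3 weeks, and 3.53% ± 0.0937 and 1.21% ± 0.0455 at 4 weeks (SD, n = 3 each). Without dd_Smed_v6_162_0_1 and dd_Smed_v6_9_0_1 the shares were 0.747% and 0.540% at 1 week, 1.24% and 0.50% at 3 weeks, and 1.32% and 0.484% at 4 weeks. As TPM are shares of a fixed total, a gain of this size takes as much from the sum of all other transcripts.

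The largest difference at 1 week was that of dd_Smed_v6_1616_0_1. It had 18.9, 34.1 and 32.9 TPM in *hippo (RNAi)* animals at 1 week, against 8.43, 11.8 and 8.23 TPM in controls. The values were 66.8, 54.1 and 71.3 TPM against 5.94, 7.23 and 6.86 TPM at 3 weeks, and 67.9, 69.1 and 66.6 TPM against 6.47, 6.44 and 4.11 TPM at 4 weeks. No library of one treatment reached the range of the other, and the ratio of means was 3.02 at 1 week, 9.59 at 3 weeks and 12 at 4 weeks.

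The largest difference at 4 weeks, and the largest growth, was that of dd_Smed_v6_615_0_1. Its *hippo (RNAi)* libraries held 66, 67 and 57.9 TPM at 1 week, 178, 151 and 167 TPM at 3 weeks and 283, 376 and 333 TPM at 4 weeks. The controls held 39.5, 35.5 and 49.3 TPM at 1 week, 30.3, 30.9 and 28.1 TPM at 3 weeks and 20.7, 25 and 22.5 TPM at 4 weeks. The levels of the treatments moved apart in opposite directions, and the ratio of means was 1.54 at 1 week, 5.56 at 3 weeks and 14.5 at 4 weeks.

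dd_Smed_v6_3632_0_1 and dd_Smed_v6_3810_0_1 followed in growth and started from a small difference. dd_Smed_v6_3632_0_1 had 14.3, 12.9 and 15.7 TPM in *hippo (RNAi)* animals at 1 week, against 9.14, 12.1 and 12.6 TPM in controls, and 95.1, 86.1 and 88.6 TPM against 11.9, 12.9 and 12.9 TPM at 4 weeks. dd_Smed_v6_3810_0_1 had 24.1, 5.33 and 12.4 TPM in *hippo (RNAi)* animals at 1 week, against 11.7, 10.1 and 10.2 TPM in controls. Its 1-week value therefore rested on library 252O, with 253O below every control, whereas at 4 weeks it had 46.1, 49.1 and 47.5 TPM against 5.83, 6.73 and 6.52 TPM.

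**Figure D2:**
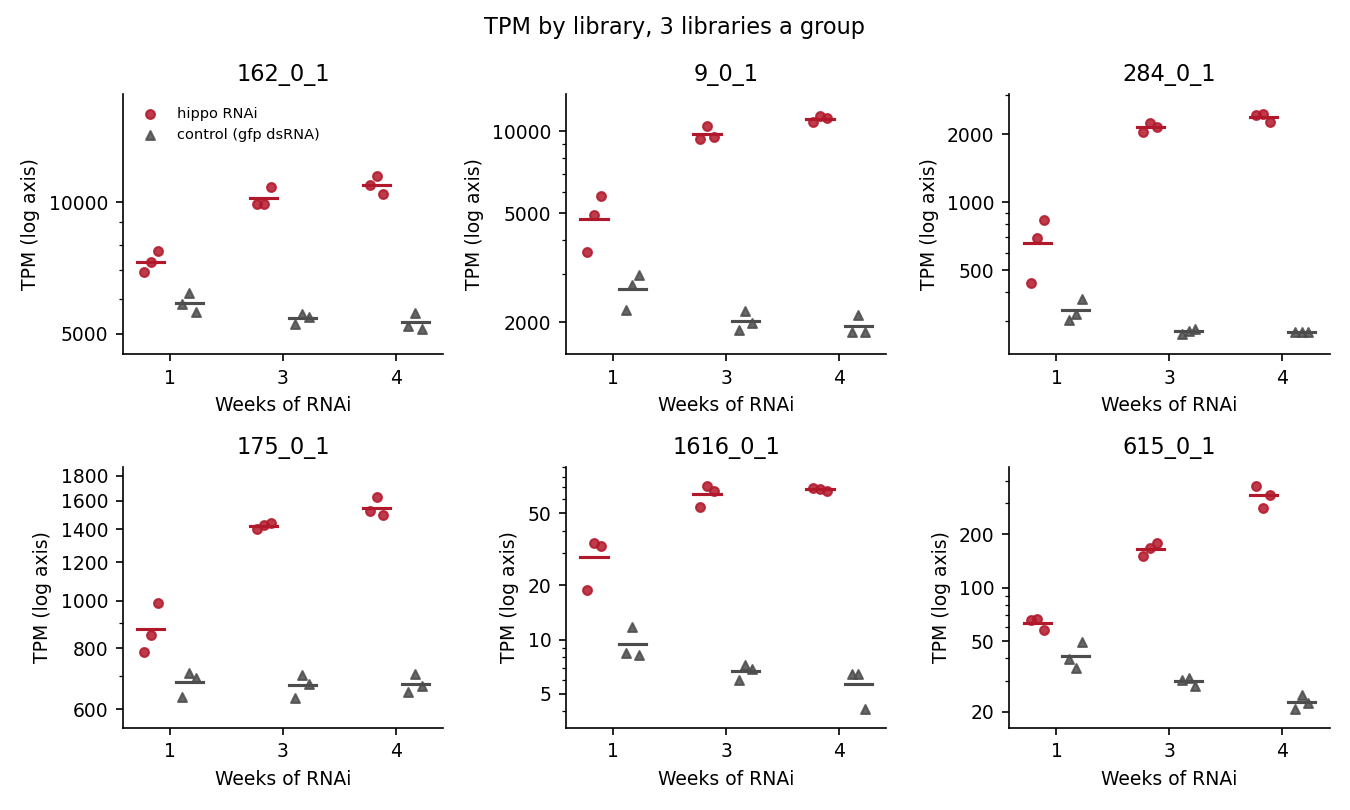
TPM of 6 members in every library (log axis, a different range in each panel), *hippo (RNAi)* as red circles and controls as grey triangles at 1, 3 and 4 weeks, with bars at the means. Panel titles leave off the shared start dd_Smed_v6_, and the *hippo (RNAi)* and control libraries do not overlap in any panel at any week.

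At the other end, 12 members were level. dd_Smed_v6_37153_0_1 was the only member whose E was larger at 1 week (0.75) than at 3 and 4 weeks (0.63 and 0.59). It had 6.52, 10.4 and 7.78 TPM in *hippo (RNAi)* animals against 4.70, 4.23 and 4.55 TPM in controls at 1 week, and 8.45, 10.5 and 6.74 TPM against 5.97, 4.78 and 5.26 TPM at 4 weeks. dd_Smed_v6_13917_0_1 averaged 21.5 ± 4.16, 24.9 ± 4.18 and 22.7 ± 3.25 TPM in *hippo (RNAi)* animals at 1, 3 and 4 weeks, against 13.2 ± 2.40, 13.6 ± 2.46 and 13.9 ± 1.74 TPM in controls (SD, n = 3 each). For dd_Smed_v6_6647_0_13 the means were 9.19 ± 1.28, 10.6 ± 0.810 and 10.8 ± 1.03 TPM, against 5.15 ± 0.434, 5.59 ± 0.493 and 5.68 ± 0.835 TPM. For dd_Smed_v6_13917_0_1 E was 0.66, 0.82 and 0.67 at 1, 3 and 4 weeks, and for dd_Smed_v6_6647_0_13 it was 0.73, 0.82 and 0.82, so most of each difference was present in the means at 1 week.

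The rule asked for separated libraries at 3 and 4 weeks but only for a difference of means at 1 week. Even so, every *hippo (RNAi)* library lay above every control library at 1 week in 120 of the 147 members, where 11.0% of the 15250 transcripts did so; the difference of means that the rule requires favours such members, so the count is a description. The backgrounds at 3 and 4 weeks, where the rule required it, were 25.9% and 30.5%. Library 252O was above every control in 129 members, 253O in 139 and 254O in 140. The 27 members that overlapped at 1 week had a median of 9.28 TPM, against 21.9 TPM for the 120. The most abundant of the 27 was dd_Smed_v6_42_0_1, with 308, 129 and 110 TPM in *hippo (RNAi)* animals, against 69.6, 77.9 and 151 TPM in controls at 1 week. At 4 weeks it had 270, 317 and 269 TPM, against 35.4, 57.0 and 60.1 TPM. For this transcript the difference of means at 1 week came mostly from 252O, and control library 251O lay above the other two *hippo (RNAi)* libraries.

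Pairs of transcripts on each side of a limit show what the rule kept and set aside. At the 1-week limit, dd_Smed_v6_1842_0_1 (E 0.30 at 1 week, 1.12 at 3 weeks and 1.24 at 4 weeks) and dd_Smed_v6_2917_0_4 (0.30, 1.03 and 0.85) were inside, whereas dd_Smed_v6_1188_0_1 (0.30, 2.88 and 3.42), whose 1-week value lay only just short of the limit, and dd_Smed_v6_3922_0_1 (0.29, 0.68 and 0.74) were outside. At the 3-week limit, dd_Smed_v6_12051_0_4 (0.58 at 3 weeks) and dd_Smed_v6_9461_0_2 (0.61) were inside and dd_Smed_v6_2917_0_2 (0.56) and dd_Smed_v6_3962_0_2 (0.54) outside. For the 4-week limit, dd_Smed_v6_37153_0_1 and dd_Smed_v6_2222_0_7 (both 0.59 at 4 weeks) were inside, and dd_Smed_v6_3223_0_1 (0.57) and dd_Smed_v6_12133_0_1 (0.54) outside. On mean level, dd_Smed_v6_9709_0_4 and dd_Smed_v6_4389_0_3 were just inside and dd_Smed_v6_13158_0_1 (4.97 TPM) and dd_Smed_v6_2821_0_2 (4.86 TPM) just outside. A single part of the rule set aside 232 transcripts at 1 week, 67 on mean level, 9 at 3 weeks and 4 at 4 weeks. Those counts are of transcripts that failed 1 part alone, whereas the E limits at 3 and 4 weeks together left 379 of the 3099 separated transcripts.

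Of the 20 numbers in the study's own gene list, 3 held a transcript that met every other part of the rule, and they are the only such transcripts with a name. Progranulin, the precursor of secreted growth factors that are also processed in lysosomes (dd_Smed_v6_67_0_1), averaged 638 ± 85.8, 911 ± 12.4 and 989 ± 13.5 TPM in *hippo (RNAi)* animals at 1, 3 and 4 weeks, against 468 ± 43.0, 376 ± 12.6 and 399 ± 17 TPM in controls (SD, n = 3 each). Dynamin 1-like, by its name a GTPase of the dynamin family (dd_Smed_v6_1074_0_1), averaged 83.8 ± 12.2, 126 ± 4.53 and 132 ± 4.17 TPM, against 57.9 ± 0.841, 52.2 ± 2.27 and 51.4 ± 2.27 TPM. A protein tyrosine phosphatase, an enzyme that removes phosphate from tyrosines (dd_Smed_v6_9638_0_1), averaged 15.7 ± 1.33, 23.2 ± 1.11 and 21.8 ± 1.15 TPM, against 10.7 ± 1.46, 10.6 ± 0.625 and 9.28 ± 1.2 TPM. The list groups these 3 under cell cycle progression. By limma's test on log2(TPM + 1), with Benjamini-Hochberg adjustment over 28735 transcripts, the most abundant transcript of 5 of the 20 numbers was called higher at 1 week (0.654% of all tested transcripts were), of 9 at 3 weeks (10.2%) and of 10 at 4 weeks (13.0%). It was called lower for 1, 5 and 4 of them (0.195%, 5.27% and 8.54% of all). The study chose that list on these libraries, so its counts are not independent evidence.

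The members' levels changed over the weeks in both treatments. Between 1 and 4 weeks the log2 of the mean TPM plus 1 changed by a median of 0.54 in *hippo (RNAi)* animals and −0.15 in controls over the 147 members, against 0.014 and −0.014 over the 15250 transcripts. The mean was higher at 4 weeks in *hippo (RNAi)* animals and lower at 4 weeks in controls in 123 members. The control mean was lower at 4 weeks in 124. In 135 of the 147 the change in *hippo (RNAi)* animals was larger than the control change with its sign turned. That count includes members whose control mean did not fall. Every *hippo (RNAi)* library of 4 weeks lay above every *hippo (RNAi)* library of 1 week in 121 members, and the same held for 3 weeks against 1 week in 125 and for 4 weeks against 3 weeks in 31. These contrasts use the libraries that chose the members, and a larger E at 4 weeks than at 1 week favours both directions, so the calls that follow describe the members and are not support for a rise, and no p-value is given for a member.

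In limma's fit, 110 of the 147 members were called higher at 4 weeks than at 1 week in *hippo (RNAi)* animals (7.38% of the 28735 tested transcripts were, and 12.8% of the 15250), and 0 were called lower, also at an unadjusted p under 0.05 (5.44% of all tested transcripts and 8.44% of the 15250 were). As the choice of members favours such calls, nothing is read from the gap to the share over all transcripts. dd_Smed_v6_3632_0_1 changed by 2.57 ± 0.11 on the log2 scale (standard error), dd_Smed_v6_615_0_1 by 2.35 ± 0.12 and dd_Smed_v6_284_0_1 by 1.91 ± 0.16. Members not called included dd_Smed_v6_42_0_1, at 0.79 ± 0.34, and the level dd_Smed_v6_37153_0_1, at 0.05 ± 0.19. Without libraries 266O, 267O, 268O and 269O, 69 members were called; 4 weeks is then represented by 264O alone, which is assumed to vary like the other groups.

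Fewer calls were made in the controls over the same time. Of the 147, 5 were called lower and 0 higher by limma's test (0.508% and 0.505% of all tested transcripts were, and 0.872% and 0.898% of the 15250), and at an unadjusted p under 0.05 the members lower and higher were 50 and 1. The largest of the 5 was dd_Smed_v6_615_0_1, at 22.7 ± 2.16 TPM at 4 weeks and 41.4 ± 7.09 TPM at 1 week in controls (log2 change −0.83 ± 0.12). The others were dd_Smed_v6_768_0_2 (−0.76), dd_Smed_v6_2775_0_1 (−0.61), dd_Smed_v6_7730_0_1 (−0.34) and dd_Smed_v6_2080_0_1 (−0.32). Except for dd_Smed_v6_2775_0_1, they were also called higher in *hippo (RNAi)* animals. The count was 1 without control library 251O or 261O, 2 without 263O, 9 when only transcripts averaging 5 TPM or more were tested and 0 in a fit of these 6 libraries alone.

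**Figure D3:**
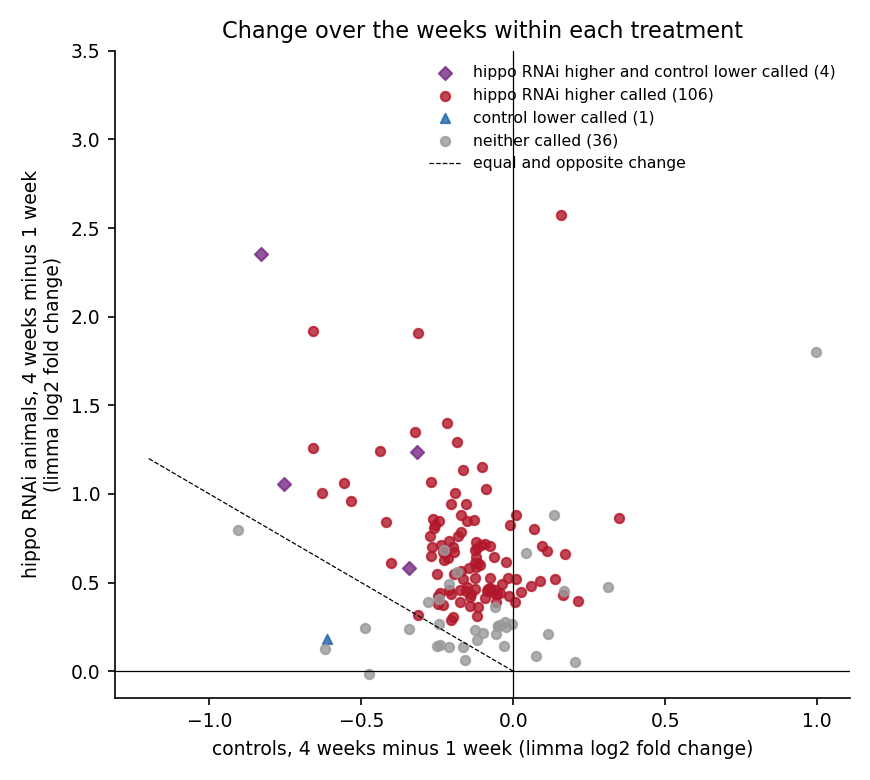
Change between 1 and 4 weeks within *hippo (RNAi)* animals (vertical) and within controls (horizontal) for the 147 members, as limma's log2 fold change on TPM + 1, coloured by which change was called at an adjusted p under 0.05. The dashed line marks an equal and opposite change, most points lie above it, and 4 members were called in both treatments.

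The late rises, which met the rule except that E was below 0.3 at 1 week, had smaller differences at each week. Their median E was 0.17 at 1 week, 0.72 at 3 weeks and 0.80 at 4 weeks, against 0.40, 0.99 and 1.06 for the members, and since the rule split the sets on E at 1 week these values carry no test. Between 1 and 4 weeks 207 of the 232 were called higher in *hippo (RNAi)* animals. That was 89.2%, against 74.8% of the members and 12.8% of the 15250. In controls 28 were called lower (12.1%, against 3.40% of the members and 0.872% of the 15250). A late rise has an E below 0.3 at 1 week and of at least 0.58 at 4 weeks. The rule thus favours these calls, and nothing is read from the gaps between the sets. Libraries of a group varied more for members than for late rises, with a median coefficient of variation of 8.09%, against 5.51% for late rises and 5.33% for all 15250. The split on E at 1 week can favour members whose 1-week libraries vary, and those libraries are part of the coefficient. Nothing is read from this gap either. Medians of the mean level were alike, at 19.1 TPM for members and 19.7 TPM for late rises. A member was the only transcript of its assembly number in 62.6% of cases, a late rise in 72.0%, and any of the 15250 in 67.8%.

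The difference at 1 week depended on the library. The summed share of the members at 1 week was 1.72% in library 252O, 1.99% in 253O and 2.16% in 254O, against 1.33%, 1.42% and 1.43% in control libraries 249O, 250O and 251O. At 3 and 4 weeks the 6 *hippo (RNAi)* libraries lay between 3.13% and 3.62% and the 6 controls between 1.18% and 1.29%. The rule was therefore applied 18 times with 1 library left out, and the left-out library was then read for the transcripts chosen without it. At 1 week, 79.2% to 91.9% of the chosen transcripts lay outside the range of the other treatment in the left-out library on the side of the rule, against 25.1% to 38.0% of all transcripts averaging 5 TPM or more. At 3 and 4 weeks these were 98.6% to 100% of the chosen transcripts, against 34.5% to 45.9% of all. The lowest share was that of 252O, where 141 of the 178 transcripts chosen without it lay above every control. Over the 178 the median difference was 0.22 on the log2 scale, and 25.3% lay past the 1-week limit of the rule (3.93% of all transcripts averaging 5 TPM or more). Control library 251O came next, with 126 of 158 and 53.2% past the limit (6.52% of all). In the remaining 4 libraries of 1 week the share past the limit was 76.4% or more (4.17% to 7.47% of all). The libraries of the other treatment, against which the left-out library was read, had helped to choose these transcripts, so the choice itself favours a high share, whereas the share over all transcripts has no such help. The 18 readings also share libraries and are not independent of each other.

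**Figure D4:**
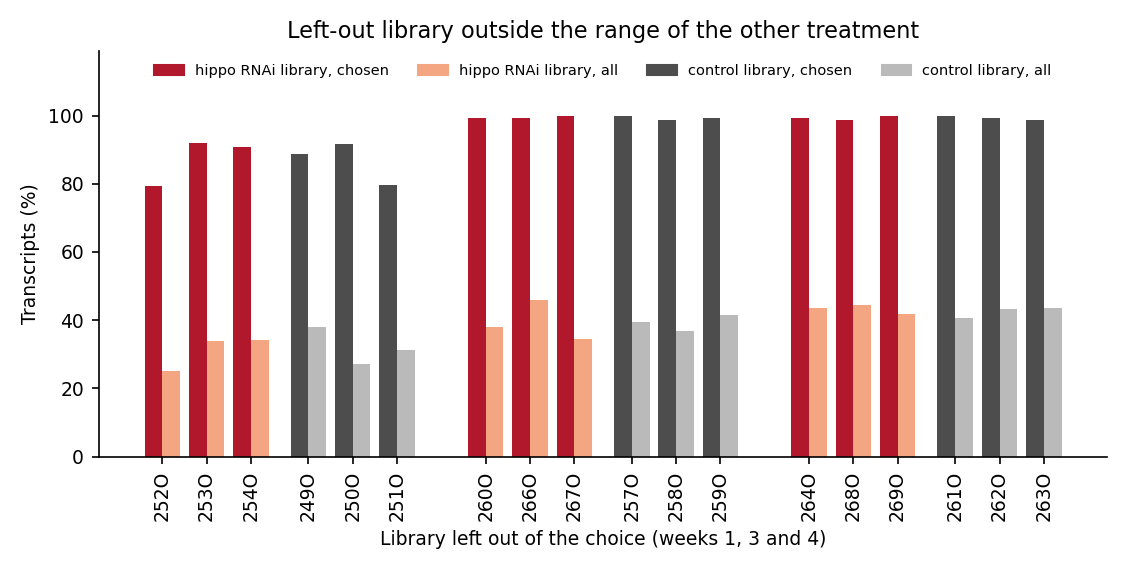
Percent of transcripts whose level in the left-out library lay outside the range of the other treatment on the side of the rule, for transcripts chosen without that library (dark bars) and all transcripts averaging 5 TPM or more (light bars). Within each week the *hippo (RNAi)* libraries (red) stand left of the controls (grey), and the dark bars of week 1 are lowest for 252O (79.2%) and 251O (79.8%).

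The numbers of 4 *hippo (RNAi)* libraries, 266O and 267O at 3 weeks and 268O and 269O at 4 weeks, come after those of all controls, and what a library number stands for is not given in the sources used here. Within the 3-week group the median E of the members was 1.02 from 260O alone and 0.997 from 266O and 267O, and within the 4-week group 1.11 from 264O alone and 1.07 from 268O and 269O. The rule without these 4 libraries found 134 transcripts, 129 of which were members. All of these libraries took part in choosing the members, which favours medians that lie close, so the values do not show whether the 4 libraries behave like the others.

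The assembly splits 44 of the 136 numbers into several transcripts, and how the reads of such a number are divided is an estimate. Besides the members, these numbers held 178 other transcripts, of which 115, from 40 numbers, had a mean of at least 1 TPM and were tested. The rule was applied to these transcripts too, and they are the ones that failed at least 1 part of it. Their own values thus took part in setting them apart, and they share reads with a member wherever their sequences overlap. At 3 weeks 31 of the 115 were called higher in *hippo (RNAi)* animals (27.0%, against 10.2% of all tested transcripts) and 4 lower (3.48%, against 5.27%), and at 4 weeks 33 were called higher (28.7%, against 13.0%) and 6 lower (5.22%, against 8.54%). At 1 week 1 was called higher (0.870%, against 0.654%) and 0 lower (against 0.195%), with 18 and 2 at an unadjusted p under 0.05. When only transcripts averaging 5 TPM or more were tested, 63 of the other transcripts remained, and 19 of them were called higher at 4 weeks. Of all 15250 transcripts in that fit, 3637 were called higher, so the gap was narrower than over the 115. The call at 1 week was dd_Smed_v6_2577_0_7, with 25.6, 25.9 and 26.9 TPM in *hippo (RNAi)* animals, against 21.4, 21.4 and 23.2 TPM in controls (log2 fold change 0.24 ± 0.05, adjusted p = 0.0285), and it was lost without 253O, 254O or 249O. Without 252O, 5 of the other transcripts were called higher at 1 week, and without 250O 2 were.

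Numbers therefore differed in whether their variants moved together. Number 2577 held 3 members, dd_Smed_v6_2577_0_4, dd_Smed_v6_2577_0_9 and dd_Smed_v6_2577_0_10, with E at 4 weeks of 0.94, 1.40 and 1.19. Of its other transcripts, dd_Smed_v6_2577_0_7 was called higher at 4 weeks by 0.96 ± 0.05 (adjusted p = 3.43e-09) and dd_Smed_v6_2577_0_3 by 0.57 ± 0.11 (0.000967). Summed over its 10 transcripts, the number had an E of 0.46 at 1 week, 1.00 at 3 weeks and 1.09 at 4 weeks. Number 2222, with 27 transcripts, held the members dd_Smed_v6_2222_0_30, dd_Smed_v6_2222_0_26 and dd_Smed_v6_2222_0_7 and summed to 0.35, 0.87 and 0.90. In number 2577 the gain was spread over several variants. In number 2222 the most abundant member, dd_Smed_v6_2222_0_30, held a large part of both the gain and the control level. Its E at 4 weeks was 0.90, as was that of the summed number, so the gain was not particular to this variant. At 4 weeks that variant averaged 172 TPM in *hippo (RNAi)* animals, against 91.7 TPM in controls. The summed number averaged 275 TPM, against 147 TPM.

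In number 4113 the gain was not spread. Its member dd_Smed_v6_4113_0_2 had 7.54, 14.4 and 12.9 TPM in *hippo (RNAi)* animals at 1 week, against 4.34, 6.28 and 7.82 TPM in controls, and 25.9, 25.2 and 22.6 TPM against 4.15, 4.00 and 3.18 TPM at 4 weeks. The only other transcript, dd_Smed_v6_4113_0_1, had 7.88, 8.05 and 8.19 TPM in *hippo (RNAi)* animals, against 7.57, 7.24 and 7.79 TPM in controls at 4 weeks. At 0.08 ± 0.06 on the log2 scale it was not called by limma (adjusted p = 0.344). At 4 weeks the ratio of means of the member was 6.50, so the gain of this number lay in 1 of its variants.

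Number 1062 went the other way. Its member dd_Smed_v6_1062_0_4 had 2.81, 3.88 and 4.6 TPM in *hippo (RNAi)* animals at 1 week, against 3.72, 0.986 and 0 TPM in controls. At 3 weeks it had 15.9, 14.4 and 12.5 TPM, while all 3 controls were listed at 0, and at 4 weeks 14.2, 16.9 and 15.3 TPM, against 0, 5.2 and 11 TPM. It was the only member listed at 0 in any library. The most abundant transcript of the number, dd_Smed_v6_1062_0_7, had 113, 139 and 121 TPM in *hippo (RNAi)* animals, against 206, 211 and 215 TPM in controls at 4 weeks, and was called lower at 3 weeks by −0.69 ± 0.11 (adjusted p = 0.000304) and at 4 weeks by −0.76 ± 0.11 (8.42e-05). Summed over its 7 transcripts, the number was at −0.07, −0.21 and −0.34 in E at 1, 3 and 4 weeks. The level of the member was small beside that of the number, whose total was 267 TPM in *hippo (RNAi)* animals, against 308 TPM in controls at 3 weeks.

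**Figure D5:**
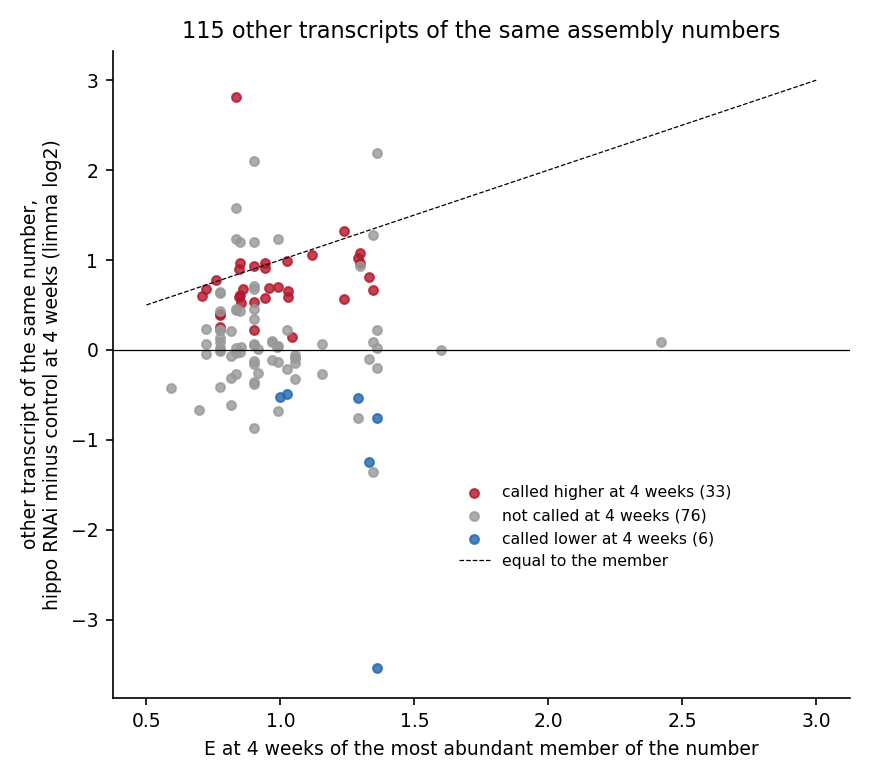
The log2 fold change at 4 weeks (*hippo (RNAi)* over control, limma on TPM + 1) of 115 other transcripts of the members' assembly numbers, against E at 4 weeks of the most abundant member of the same number. The dashed line marks a change equal to that of the member, 33 transcripts are called higher and 6 lower, and the lowest point is dd_Smed_v6_1062_0_5.

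When TPM were summed over all transcripts of each number before the rule was applied, 107 of the 136 numbers met it, and 109 numbers did in all. Of the 44 numbers with several transcripts, 15 met it. The 29 that did not had median summed E of 0.20, 0.47 and 0.50 at 1, 3 and 4 weeks, and in 28 of them the summed E was above 0 at both 3 and 4 weeks. The exception was number 1062.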

How the data were processed

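RNA of whole animals was sequenced as stranded paired-end libraries, and the authors used kallisto 0.43.0 to estimate transcript levels on dd_Smed_v6, a transcriptome assembly. They deposited TPM, which sum to 1000000 in each library and keep no depth, so depth and the precision it gives are unknown; variants of 1 assembly number share reads, and their split is an estimate. The members and lists were chosen with earlier results of these data known. E used group means and a pseudocount of 1. Since the methods' count tests need counts, limma 3.58.1 (R 4.3.3, trend, 6 groups in 1 fit) was run on log2(TPM + 1) for 28735 transcripts averaging 1 TPM or more, with calls at a Benjamini-Hochberg adjusted p under 0.05, and checked on simulated data. Fold changes on this scale understate those of low transcripts. Groups came from the labels. Named members were the 6 most abundant, the 6 largest by E at 1 and at 4 weeks, the 3 with most and least growth, 2 on each side of each limit, their other transcripts, and the members called lower in controls, dd_Smed_v6_2577_0_7 and the variants of its number, which were chosen after their values were seen. Alternatives were the pseudocount, filter, scaling, thresholds, summing by number and leaving out libraries. Median-ratio factors lay between 0.981 and 1.03, and replicates within groups correlated at Spearman's rho of 0.978 to 0.987.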

Additional observations from a re-analysis of the deposited data

Results flagged for a closer look

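The effect of *hippo (RNAi)* differed between weeks for 3 other transcripts of number 1062 by limma's interaction term (adjusted over 28735 transcripts). For dd_Smed_v6_1062_0_7 the effect at 4 weeks minus that at 1 week was −0.565 on the log2 scale (standard error 0.15, adjusted p = 0.0291). It had 172, 182 and 144 TPM in *hippo (RNAi)* animals, against 199, 171 and 200 TPM in controls at 1 week, beside the 4-week values given above. For dd_Smed_v6_1062_0_3 the effect at 3 weeks minus that at 1 week was 1.24 (0.33, adjusted p = 0.0431), with 21.0, 18.6 and 19.6 TPM in *hippo (RNAi)* animals, against 6.02, 8.01 and 7.48 TPM in controls at 3 weeks. For dd_Smed_v6_1062_0_5 the effect at 4 weeks minus that at 1 week was −4.61 (1.1, adjusted p = 0.0143). It had 0, 0 and 2.27 TPM in *hippo (RNAi)* animals, against 6.36, 17.6 and 36.8 TPM in controls at 4 weeks, and was listed at 0 in all 3 controls at 1 week. Libraries 262O and 263O, in which dd_Smed_v6_1062_0_5 was highest, were also the control libraries of 4 weeks in which the member dd_Smed_v6_1062_0_4 was above 0; any part of the read split between variants in these differences was not tested.

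dd_Smed_v6_4113_0_1 had an E of 0.0835 at 4 weeks, with every *hippo (RNAi)* library above every control, and of −0.11 at 1 week, with 7.25, 6.96 and 7.01 TPM in *hippo (RNAi)* animals below the 8.45, 7.42 and 7.31 TPM of the controls. The opposite order of the libraries drew attention to it and was not itself the subject of a test; limma's interaction term gave 0.19 ± 0.08 (adjusted p = 0.157).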

How the results depend on the processing

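The 147 members became 82 with a pseudocount of 5, 69 with an E of at least 1 at 3 and 4 weeks, and 23 with an E of at least 0.58 at 1 week. They were 159 with a pseudocount of 0.1, 126 after median-ratio scaling, 214 with no filter on level, 110 from 10 TPM and 120 with separation at 1 week. Leaving out 1 library gave 120 to 178, of which 115 to 147 were members. The 5 members called lower in controls became 9 with a filter at 5 TPM, 0 with the compared groups alone, and 1 to 7 without 1 library (1 without 251O or 261O, 2 without 263O). The 110 called higher in *hippo (RNAi)* animals became 69 without libraries 266O to 269O and 101 to 107 without 1 library. Without those 4 libraries, other transcripts called higher were 17 at 3 weeks and 17 at 4 weeks, and lower 2 and 2, and all transcripts called higher were 1541 and 2023. With a filter at 5 TPM, which left 63 other transcripts, 3 were called higher at 1 week and 19 at 4 weeks (263 and 3637 of all 15250). With a pseudocount of 0.1, 2 other transcripts were called higher at 1 week. At 1 week leaving out 1 library gave 0 to 5 other transcripts (5 without 252O, 2 without 250O, 0 without 249O, 253O or 254O) and 33 to 325 of all transcripts called higher (325 without 252O, 53 without 249O, 45 without 253O, 33 without 254O), against 188, which became 7 with the compared groups alone. Counting left-out libraries by the E limits gave lowest shares of 25.3% at 1 week, 93.9% at 3 weeks and 93.2% at 4 weeks. In the same libraries the shares of all transcripts averaging 5 TPM or more were 3.93%, 3.40% and 4.12%. The cause of these changes was not tested, beyond the smaller number of libraries where some were left out. Leaving out 252O reversed the 1-week difference of means of dd_Smed_v6_3810_0_1. It then had 5.33 and 12.4 TPM in *hippo (RNAi)* animals, against 11.7, 10.1 and 10.2 TPM in controls. Reversals of E in other members were not counted. Among the other transcripts checked singly, no alternative reversed a called direction.

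No paired analysis was possible because the labels carry library numbers that no 2 groups share, and replicates were numbered in accession order. TPM keep no read counts, so low members, such as the 37 below 10 TPM, cannot be given a counting error.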
